A study of Chlorocebus sabaeus with 18 samples.

Results

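Long internal bins are stretches of 1000 bases or more inside a gene that the authors counted as 1 unit of exon use. They were taken from the union of the authors' 6 DEXSeq tables, which divide each annotated gene into non-overlapping bins at every exon boundary of its transcripts. A bin was kept if it was at least 1000 bases wide, was neither the first nor the last bin of its gene, lay in a single gene rather than a group of overlapping genes, and had a normalised value of 10 or more in 3 libraries. That gave 5362 of 431444 bins (1.24%), in 4055 of 19997 genes or gene groups. The minimum may be met in any 3 libraries, so a bin can enter through the groups where it is high: 588 of the bins had fewer than 3 CTL libraries at 10 or more. For each bin the quantity followed here is its share, the percentage of the summed counts of all listed bins of its gene that fell in it.

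RNA came from COS-7 cells, a kidney fibroblast line of the African green monkey, and bin values were available for 5 groups of 3 libraries. CTL are control cells. CGG cells were transfected with an FMR1 construct that carries 60 CGG repeats in its 5′ untranslated region, and TRA_OE cells overexpressed the splicing regulator TRA2A (their titles carry the prefix GFP, which is not explained). In siTRA cells TRA2A was knocked down, and CGG_siTRA cells received both the repeat and the knockdown. A sixth group, repeat plus overexpression, entered through the authors' splicing events alone. The labels name no empty vector or control siRNA, so an effect of transfection and an effect of the named agent cannot be told apart in any comparison with CTL. Nor do they tell whether the libraries of a group come from separate cultures. The p-values therefore rest on the spread between these libraries, which may be technical.

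Most introns are removed from a transcript before it leaves the nucleus, and a total RNA library still holds reads from introns that have not yet been removed or that are retained. A long internal bin can be an annotated retained intron, an intronic stretch that belongs to a transcript with an early end, a long exon, or a piece of a terminal exon with several annotated ends. TRA2A is a serine- and arginine-rich protein that binds pre-mRNA and promotes inclusion of exons, and transcripts with expanded CGG repeats, the basis of the tremor and ataxia syndrome FXTAS, bind several RNA-binding proteins in nuclear foci.

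The bins had a median width of 1604 bases, with a 10th percentile of 1092, a 90th percentile of 3424 and a maximum of 24540. By their edges, 2759 (51.5%) adjoined another bin of the gene on both sides, 1302 on the 3′ side alone, 865 on the 5′ side alone and 436 on neither side. When adjoining bins were joined into runs, 2705 bins (50.4%) lay in the last run of the gene, that is in the annotated block at its 3′ end. Another 2517 (46.9%) lay in a run in the middle of the gene, 109 in the first run, and 31 in genes with a single run. Read density differed between these places, with wide overlap. The density ratio is counts per base in the bin divided by counts per base in the rest of the gene's bins. Its median was 0.383 in the last run (quartiles 0.188 and 0.747) and 0.0691 in middle runs (quartiles 0.00876 and 0.589). Middle-run bins fell into a sparse and a dense set, as the histogram by place in the gene shows. Bins that adjoin no other bin on either side, the layout of a separate exon, had a median density ratio of 0.600. Edges and runs were set from the listed bins alone. For 157 long internal bins a neighbouring bin number was not listed, so their edges may be misplaced. The name of introns or alternative ends thus describes part of these bins, and since the files name no transcripts, intron and exon could not be assigned bin by bin.

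**Figure D1:**
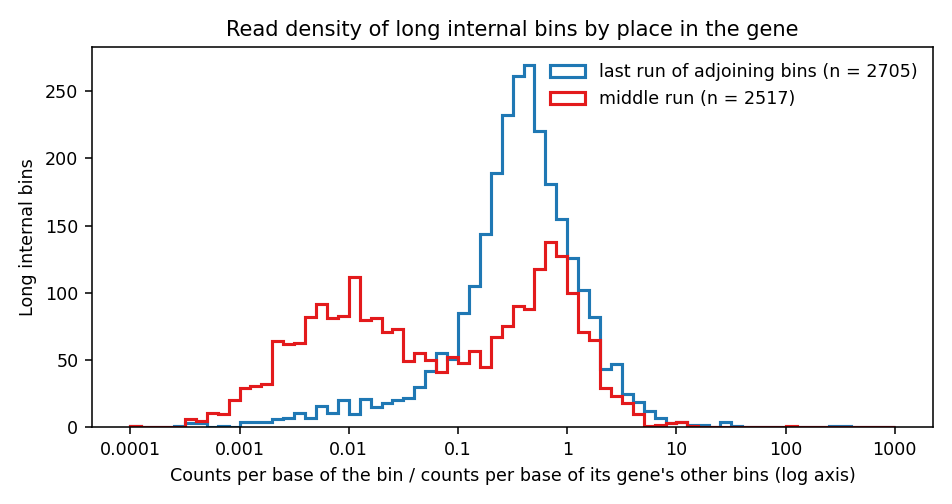
Number of long internal bins (vertical axis) by density ratio, the counts per base of the bin over the counts per base of the other bins of its gene (horizontal log axis). The 2705 bins in the last run form 1 peak between 0.1 and 1, and the 2517 bins in middle runs form 1 peak near 0.01 and another below 1.

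Across all 15 libraries the median bin held 8.56% of its gene's counts, with a 10th percentile of 0.142% and a 90th percentile of 41.1%. Shares under 1% were seen for 1370 bins, shares over 50% for 355 and shares over 95% for 17. The largest share belonged to chr7:73830863-73832683, a bin of 1821 bases in the last run of its gene, at 99.8% ± 0.0497 in CTL, 99.7% ± 0.0900 with the repeat, 99.7% ± 0.0232 with overexpression, 99.7% ± 0.0609 with knockdown and 99.6% ± 0.0288 with repeat and knockdown (SD, n = 3). Such a bin is nearly all of its gene's counted RNA, and its share has little room to vary. Wider bins held more of their gene but were sparser: the 2355 bins under 1500 bases had a median share of 6.63% and a density ratio of 0.325, and the 186 bins of 5000 bases or more had 20.1% and 0.180. A single long internal bin was found in 3044 genes, 2 in 799 genes and 3 or more in 212 genes, with at most 10. At the width threshold, 4 bins measured exactly 1000 bases, with mean normalised values from 538 to 2071, and 11 bins measured 999 bases, with values from 7.29 to 2542.

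The libraries held 121142115 to 203957869 counts over all bins. A single gene ID rose at least 2-fold in TRA_OE and fell at least 2-fold with knockdown in both backgrounds. Its normalised sum was 16912 to 17234 in CTL, 15675 to 17032 in CGG, 187106 to 221793 in TRA_OE, 3117 to 4916 in siTRA and 4020 to 4408 in CGG_siTRA. It was picked by this behaviour, which makes it weak evidence that the labels are right, and it holds 0 long internal bins. The files pair no gene ID with a name, so bins are given by their human GRCh38 position, and neither gene lists nor kidney markers could be looked up. Library b of siTRA stood apart: long internal bins took 3.27% of its counts, against 2.25% to 2.82% in the other 14 libraries, and their median share was 9.90%, against 7.97% to 8.62%. The SD of a bin's share within siTRA was 15.6% of its mean for the median bin. From libraries a and c alone it was 6.13%, which is not on the same footing as an SD of 3 libraries. In the other groups, with 3 libraries each, it was 6.94% in CTL, 7.58% in CGG, 8.49% in TRA_OE and 9.69% in CGG_siTRA.

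Long internal bins took 2.75% ± 0.0678 of all bin counts in CTL, 2.46% ± 0.0408 in CGG and 2.41% ± 0.139 in TRA_OE (SD, n = 3). Every CTL library lay above every CGG and TRA_OE library. In siTRA the value was 2.76% ± 0.441 (SD, n = 3), with library b above every CTL library at 3.27%. Its libraries a and c, at 2.57% and 2.45%, lay below every CTL library. In CGG_siTRA the value was 2.51% ± 0.202 (SD, n = 3), with its highest library at 2.66% and the lowest CTL library at 2.68%. The value was 10.6% lower in CGG than in CTL and 12.5% lower in TRA_OE. For siTRA the difference from CTL was 0.429% with library b and -8.76% without it, and for CGG_siTRA it was -8.79%. With only the genes that hold such a bin in the denominator the difference was -5.71% in CGG and -6.87% in TRA_OE. The median bin share was 4.47% lower in CGG than in CTL and 3.10% lower in TRA_OE. For siTRA it was 3.89% higher with library b and 2.02% lower without it. These are descriptions over bins, with no test.

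**Figure D2:**
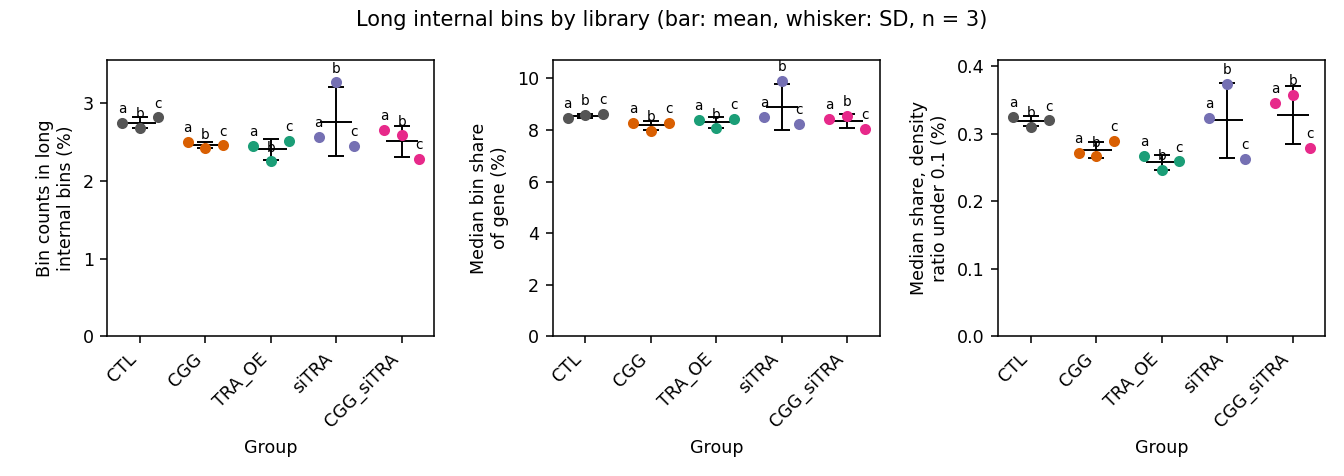
Percentage of all bin counts in long internal bins (left), median bin share of gene (middle) and median share of the 1775 bins with a density ratio under 0.1 (right), by library and group. Points are libraries a to c, bars the mean and whiskers the SD (n = 3), and library b of siTRA is the highest point in each panel.

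Changes of share were tested in edgeR (diffSpliceDGE) in 1 fit to the counts of all 15 libraries, with Benjamini-Hochberg (BH) adjustment over all 265486 bins tested, of which 5263 were long internal bins. The other 99 were the sole bin of their gene above the minimum. A log2 change below is the change of the bin's use relative to its gene. Because the bin itself is part of its gene's total, a bin that holds most of its gene can show little change. At a BH-adjusted p under 0.05, 159 different bins in 144 genes were called in at least 1 of 6 comparisons. Of these bins 109 lay in middle runs, which hold 2517 of all 5362, and 113 had a density ratio under 0.1. Among the 159, 9 had fewer than 3 CTL libraries at 10 or more, so they met the minimum with the help of treated libraries. Any difference of these 9 from CTL is a description.

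**Figure D3:**
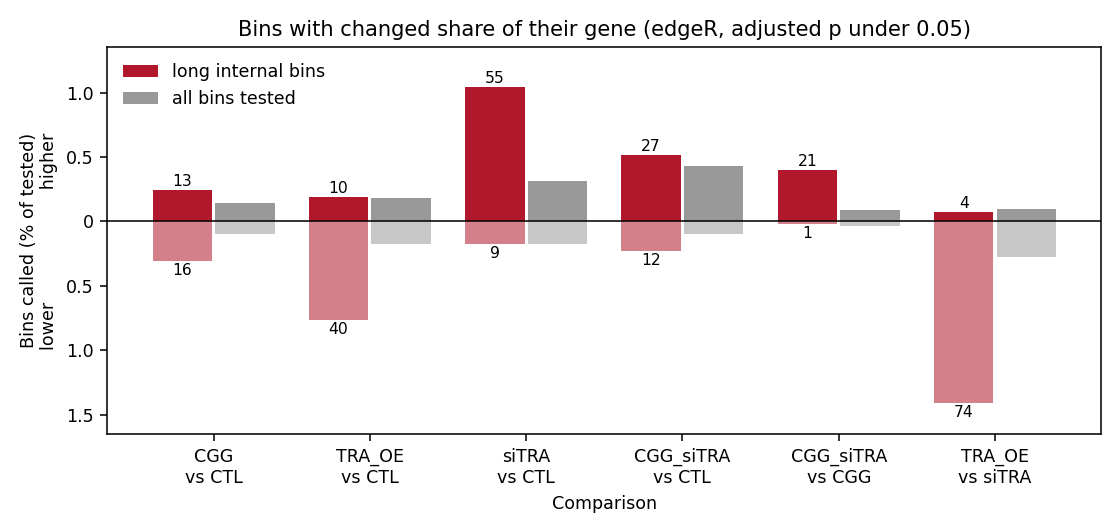
Percentage of tested bins called by edgeR (BH-adjusted p under 0.05) with a higher (up) or lower (down) share, for long internal bins (red, with their number) and all bins tested (grey), in 6 comparisons. Long internal bins were called mostly higher in siTRA against CTL (55 higher, 9 lower) and mostly lower in TRA_OE against siTRA (4 higher, 74 lower).

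Cells with the expanded repeat differed from CTL in 29 long internal bins, 13 with a higher and 16 with a lower share. That is 0.551% of those tested, where 0.24% of all bins were called, 0.142% higher and 0.0972% lower. The median log2 change was -0.04 over the long internal bins and 0.00 over all bins. With 1 library left out the count was 12 without CTL library c, 14 without CTL library a, 15 without CGG library b, and 18 without CGG library a or c. Of the 29 bins, 8 were called in each such fit. With only the libraries of CTL and CGG in the fit, 27 bins were called higher and 100 lower. How many of all bins were called in that fit was not counted, so this split has no background.

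The bin at chr4:56399401-56400783 on the minus strand (1383 bases, gene ENSG00000128059.8) had the largest rise with the repeat among the bins called. Its share in libraries a, b and c was 0.503%, 0.428% and 0.394% in CTL, and 1.59%, 1.53% and 1.73% in CGG. In TRA_OE it was 1.26%, 1.29% and 1.61%, in siTRA 1.92%, 2.0% and 1.72%, and in CGG_siTRA 1.63%, 1.92% and 1.17%. Each of the 12 treated libraries thus lay above all 3 CTL libraries, and the treated groups overlapped one another. The log2 change was 1.88 (SE 0.16, BH-adjusted p = 8.1e-20) in CGG against CTL in the edgeR test. Against the same CTL libraries it was 1.65 in TRA_OE, 2.09 in siTRA and 1.83 in CGG_siTRA, with BH-adjusted p of 4.86e-16, 1.24e-23 and 3.75e-18. CGG_siTRA against CGG gave -0.05. The bins that adjoin it on either side, of 128 and 222 bases, differed less: the 5′ neighbour held 5.11% of the gene in CTL and 5.14% in CGG, and the 3′ neighbour 8.35% and 7.98%. The gene's normalised sum was 18531 ± 526 in CTL and 12535 ± 897 in siTRA, while the bin's normalised value was 81.8 ± 9.53 and 236 ± 30.9 (SD, n = 3).

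A second bin with this profile lay at chr10:125841331-125842805 on the plus strand (1475 bases), joined to the bin before it. CTL libraries had shares of 2.16%, 2.51% and 2.21%, and CGG libraries 4.83%, 5.23% and 5.10%. The other treated groups averaged 4.40% in TRA_OE, 4.67% in siTRA and 4.71% in CGG_siTRA, again with no overlap with CTL. Its log2 changes from CTL were 1.13, 0.93, 1.02 and 1.03 in CGG, TRA_OE, siTRA and CGG_siTRA (SE 0.11 each), and each call held in each fit without 1 library. The 4 values share the CTL libraries and are not 4 separate measurements of a difference.

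Further bins lay higher with the repeat than in CTL. A gene of chromosome 1 held 3 called bins. Of these, chr1:244847102-244848787 and chr1:244848890-244850296 were called with the repeat. The bin chr1:244843768-244845199 was called only in siTRA and in CGG_siTRA, each against CTL. The bin chr1:244847102-244848787 held 0.0683% ± 0.0102 of its gene's counts in CTL, at a mean normalised value of 132. It held 0.160% ± 0.00782 with the repeat and 0.197% ± 0.0590 with the knockdown (SD, n = 3). Its log2 change in CGG was 1.23 (BH-adjusted p = 2e-06, edgeR), and in TRA_OE it was 0.95, a call that was lost without CTL library b. At chr6:118910597-118911649 (1053 bases) the share went from 0.699% ± 0.134 in CTL to 2.54% ± 0.249 with the repeat, 2.75% ± 0.159 with overexpression, 3.00% ± 0.482 with knockdown and 2.61% ± 0.307 with repeat and knockdown (SD, n = 3). That bin is thinly covered, at a mean normalised value of 9.26 in CTL and 42.2 in CGG. Only 2 of its CTL libraries reached 10, so it entered through treated libraries, where it is high, and its difference from CTL is given as a description. At chr1:28236453-28237760 the share was 0.746% ± 0.0731 in CTL, 1.59% ± 0.151 in CGG and 1.07% ± 0.0102 in TRA_OE (SD, n = 3), with log2 changes of 1.10 (BH-adjusted p = 0.0011) and 0.52 (BH-adjusted p = 0.854) in the edgeR test.

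**Figure D4:**
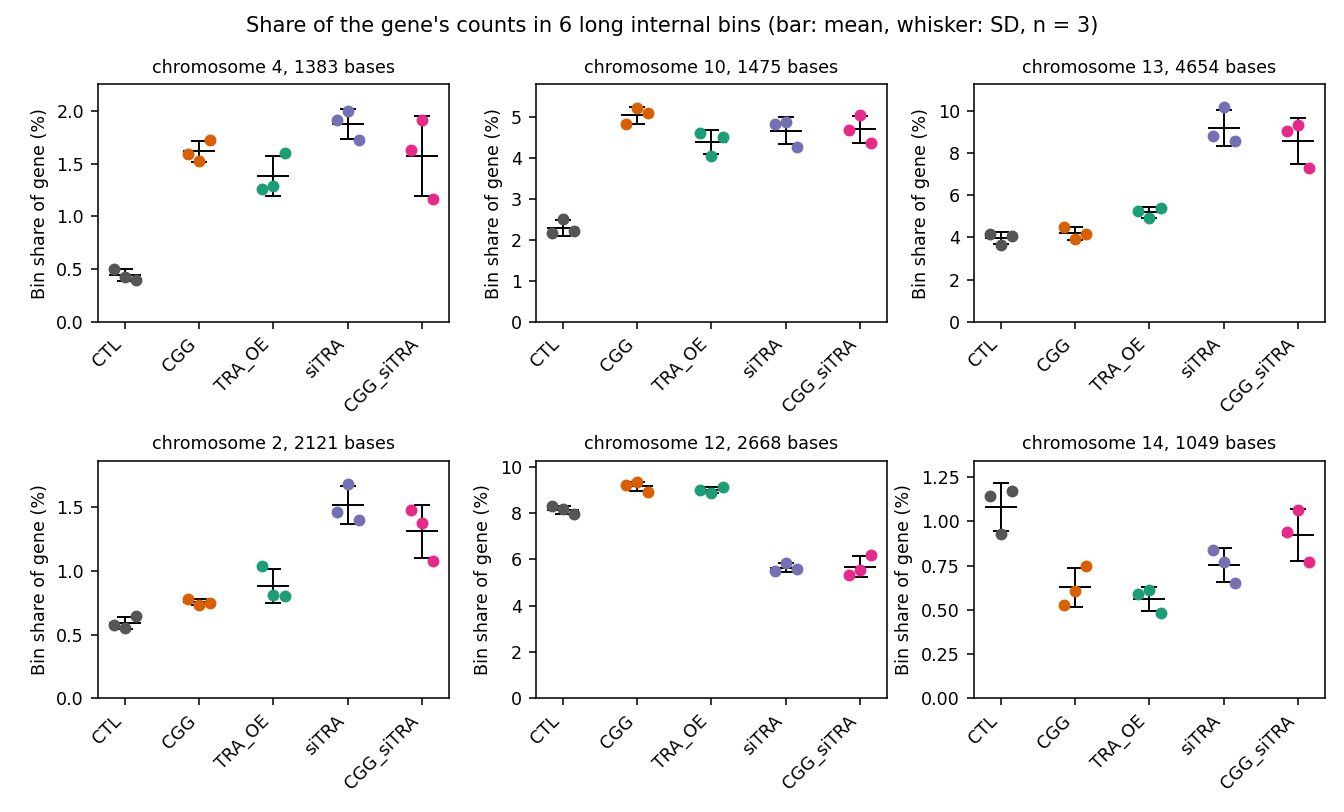
Bin share of gene (percent, vertical axis) in each library of the 5 groups for 6 long internal bins, named by chromosome and width. Points are libraries, bars the mean and whiskers the SD (n = 3): the bins of chromosomes 4 and 10 lie higher in all treated groups than in CTL, those of chromosomes 13 and 2 highest and that of chromosome 12 lowest in the 2 knockdown groups, and that of chromosome 14 lowest in CGG and TRA_OE.

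Bins that fell with the repeat were sparse ones in 15 of 16 cases, with a density ratio under 0.1. At chr15:63044153-63047726 on the plus strand (3574 bases, in the first run of its gene), the share was 0.139%, 0.0908% and 0.134% in CTL and 0.0553%, 0.0638% and 0.0671% in CGG. TRA_OE libraries were at 0.0684%, 0.0531% and 0.0556%, also below every CTL library. The log2 change was -0.96 (SE 0.16, BH-adjusted p = 1.38e-05) in CGG and -1.03 (SE 0.16, BH-adjusted p = 4.73e-07) in TRA_OE, in the edgeR test, and both calls held in each fit without 1 library. The bin at chr14:23067314-23068362 on the minus strand (1049 bases, gene ENSG00000100813.14) had 1.14%, 0.926% and 1.17% in CTL and 0.525%, 0.608% and 0.747% in CGG, with no overlap. In TRA_OE it stood at 0.591%, 0.613% and 0.484%, and its log2 changes were -0.77 in CGG and -0.94 in TRA_OE. In siTRA it averaged 0.753% and in CGG_siTRA 0.924%, neither called against CTL (BH-adjusted p = 0.0763 and 1, edgeR). At chr6:7599681-7601335 the share was 3.48% ± 0.260 in CTL and 1.70% ± 0.112 in CGG (SD, n = 3), a log2 change of -1.03.

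Overexpression of TRA2A gave 50 called bins against CTL, 10 higher and 40 lower, or 0.950% of those tested. Of all bins 0.357% were called, 0.183% higher and 0.174% lower. Over the long internal bins the median log2 change was -0.04 and 0.00 over all bins. Without CTL library a the count was 18 (6 higher, 12 lower), without TRA_OE library b it was also 18 (7 higher, 11 lower), without CTL library c 22 and without TRA_OE library a 33. In each of the fits without 1 library 10 of the 50 were called.

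Next to the bins already described, 2 adjoining bins of a gene on chromosome 19 fell together in TRA_OE. The bin chr19:49102411-49103587 had shares of 1.10%, 0.944% and 0.932% in CTL and 0.514%, 0.512% and 0.485% in TRA_OE, and its neighbour chr19:49103588-49104633 went from 0.650% ± 0.103 to 0.312% ± 0.0261 (SD, n = 3). On the log2 scale bin use differed by -0.98 and -1.05. In CGG they averaged 0.602% and 0.346%, with log2 changes of -0.71 and -0.89 that were lost without CTL library a. The bin chr1:39562417-39563445 (1029 bases, minus strand) had 0.269%, 0.214% and 0.295% in CTL and 0.0973%, 0.109% and 0.139% in TRA_OE (log2 change -1.19, SE 0.22, BH-adjusted p = 0.000153, edgeR). The groups did not overlap in any of these 3 bins. The widest bin called lower was chr12:104996027-105017624, of 21598 bases, whose share fell from 6.04% ± 1.21 in CTL to 3.07% ± 0.606 in TRA_OE (SD, n = 3), a call lost without CTL library a or TRA_OE library b (highest BH-adjusted p = 0.179 over edgeR fits without 1 library).

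The bin chr21:39296437-39298089 on the minus strand (1653 bases) rose in TRA_OE. Its libraries had 1.27%, 1.54% and 1.43% in CTL and 2.61%, 2.67% and 2.75% in TRA_OE, with 2.29%, 2.30% and 2.33% in CGG. The log2 change was 0.92 (SE 0.14, BH-adjusted p = 4.82e-07) in TRA_OE in the edgeR test. In 1 gene of chromosome 10, 2 long internal bins went opposite ways in TRA_OE: chr10:91462185-91463664 had 2.30% ± 0.511 in CTL and 4.07% ± 0.397 in TRA_OE, and chr10:91487779-91489981 had 3.04% ± 0.431 and 1.32% ± 0.0791 (SD, n = 3). The first call (log2 change 0.82) was lost in the fit without any 1 of the 6 libraries. The second (log2 change -1.20) was lost without CTL library a or TRA_OE library b, and the same bin lay at 1.44% in CGG, 1.41% in siTRA and 1.47% in CGG_siTRA.

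Knockdown of TRA2A without the repeat changed 64 bins against CTL, 55 of them higher, which is 1.22% of those tested. Over all bins 0.488% were called, 0.312% higher and 0.176% lower. Long internal bins had a median log2 change of 0.05 and all bins one of -0.01. Without siTRA library b 42 bins were called, 27 higher and 15 lower. Without CTL library a 30 were called, 29 higher and 1 lower, and without CTL library b or c 36. In the full fit and in each fit without 1 library 17 bins were called.

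The bin chr13:25331559-25336212 on the plus strand (4654 bases, gene ENSG00000139496.15), which adjoins annotated bins on both sides, had the lowest BH-adjusted p of the 64 long internal bins called in this comparison. Its share was 4.18%, 3.64% and 4.05% in CTL, 4.52%, 3.91% and 4.18% in CGG, and 5.27%, 4.92% and 5.38% in TRA_OE. It was 8.83%, 10.2% and 8.61% in siTRA and 9.04%, 9.35% and 7.31% in CGG_siTRA. All 6 knockdown libraries lay above all 9 others. The log2 change was 1.22 (SE 0.10, BH-adjusted p = 2.17e-24) for siTRA against CTL and 1.03 (SE 0.10, BH-adjusted p = 9.32e-17) for CGG_siTRA against CGG, in the edgeR test, and both calls held in each fit without 1 library. The gene's normalised sum was 19597 ± 935 in CTL and 21166 ± 1269 in siTRA (SD, n = 3). Of its neighbours, the bin of 126 bases before it held 5.51% in CTL and 4.97% in siTRA, while the adjoining bin after it, of 97 bases, held 0.401% and 0.885%. In TRA_OE against CTL the log2 change was 0.39 (BH-adjusted p = 0.0509, edgeR).

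The same order was seen at chr2:55025086-55027206 on the minus strand (2121 bases, joined to the bin before it). Shares were 0.578%, 0.550% and 0.644% in CTL and 1.47%, 1.68% and 1.40% in siTRA. In CGG they were 0.778%, 0.735% and 0.747%, and in CGG_siTRA 1.48%, 1.38% and 1.08%. Neither pair of groups overlapped. Without the repeat the log2 change was 1.36 (SE 0.13, BH-adjusted p = 2.52e-18, edgeR). With the repeat it was 0.81 (SE 0.12, BH-adjusted p = 5.35e-06, edgeR), and both held in each fit without 1 library. TRA_OE averaged 0.883% ± 0.133 (SD, n = 3), a log2 change of 0.58 from CTL that was lost without CTL library a, CTL library b or TRA_OE library a.

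Wider still, chr13:51436426-51451024 on the minus strand spans 14599 bases and holds a small part of its gene. It had 0.844%, 0.724% and 0.886% in CTL and 2.14%, 2.73% and 1.72% in siTRA, and 0.951%, 1.10% and 1.19% in CGG and 2.42%, 2.26% and 1.42% in CGG_siTRA, with no overlap in either pair. Its log2 changes were 1.44 (SE 0.19) and 0.93 (SE 0.19), the second lost without CGG library a or CGG_siTRA library a or b (highest BH-adjusted p = 0.159, edgeR). At chr17:64128752-64129975 (1224 bases), in the first run of its gene, bin use rose by 2.50 on the log2 scale (SE 0.29) in siTRA against CTL, the largest rise called in that comparison, where the share went from 1.26% ± 0.353 to 7.22% ± 2.15 (SD, n = 3). That bin has a mean normalised value of 14.7 in CTL and 71.9 in siTRA. In CGG_siTRA against CGG its log2 change was 0.19, with shares of 3.52% and 3.95%.

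Falls with knockdown numbered 9. The largest that met the rule for named bins was at chr19:36580255-36582397 on the minus strand (2143 bases, in a middle run), with shares of 4.16%, 3.49% and 3.39% in CTL and 1.39%, 1.90% and 1.90% in siTRA. Its log2 change was -1.11 (SE 0.23, BH-adjusted p = 0.00346, edgeR), a call lost without CTL library a or siTRA library a. In cells with the repeat its log2 change was -0.23, with 2.75% ± 0.324 in CGG and 2.37% ± 0.496 in CGG_siTRA (SD, n = 3). The next in size were 3 bins of chromosomes 10, 1 and 2. At chr10:91487779-91489981 the log2 change in siTRA was -1.10 (BH-adjusted p = 0.00288, edgeR), lost without CTL library a or siTRA library c. At chr1:39562417-39563445 it was -0.91 (BH-adjusted p = 0.0149, edgeR), lost without CTL library a or c or siTRA library c. At chr2:203439437-203441413 it was -0.69 (BH-adjusted p = 0.00554, edgeR), lost without CTL library c or siTRA library b, and the share went from 10.3% to 6.36%.

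The bin chr12:98532967-98535634 on the plus strand (2668 bases, gene ENSG00000120802.13) is well covered, at a mean normalised value of 4021 in CTL and 2343 in siTRA. Its share was 8.30%, 8.18% and 7.96% in CTL and 5.49%, 5.85% and 5.6% in siTRA. With the repeat it was 9.21%, 9.33% and 8.93% in CGG and 5.31%, 5.55% and 6.19% in CGG_siTRA, and TRA_OE had 8.99%, 8.85% and 9.12%. The 6 knockdown libraries lay below the 9 others. Without the repeat the log2 change was -0.53 (SE 0.13, BH-adjusted p = 0.0197, edgeR). With the repeat it was -0.69 (SE 0.13, BH-adjusted p = 0.000778, edgeR). The first was lost without any of CTL libraries a, b and c or siTRA libraries a and c, and the second without CGG_siTRA library b (edgeR BH-adjusted p = 0.0517). The adjoining bin before it, of 144 bases, had 1.91% in CTL and 1.34% in siTRA, and 2.07% in CGG and 1.28% in CGG_siTRA.

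Other falls were also lost under removal of single libraries. A bin at chr4:78910838-78911877 (1040 bases) had 3.37% ± 0.191 in CTL and 2.21% ± 0.195 in siTRA (log2 change -0.61, lost without any 1 of the 6 libraries), and 3.44% ± 0.449 in CGG and 2.27% ± 0.102 in CGG_siTRA (SD, n = 3; log2 change -0.59, BH-adjusted p = 0.16, edgeR). At chr19:44175722-44177683, in the last run of its gene, the share went from 28.2% ± 2.60 to 19.9% ± 2.11 (SD, n = 3; log2 change -0.49), lost without CTL library a or c or siTRA library a or c. Also in the last run of a gene, chr3:108043299-108047078 went from 16.6% ± 0.278 in CTL to 12.8% ± 1.79 in siTRA and 12.4% ± 0.460 in CGG_siTRA (SD, n = 3), a call lost in siTRA without any CTL library or siTRA library a or c, and in CGG_siTRA without any 1 of the 6 libraries.

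Knockdown in cells with the repeat, CGG_siTRA against CGG, gave 22 called bins, 21 higher and 1 lower. This is 0.418% of those tested, against 0.122% of all bins, 0.0908% higher and 0.0313% lower. The median log2 change was 0.03 over long internal bins and 0.01 over all bins. Without CGG_siTRA library b the count was 3, all higher, without library a 8 and without library c 46, of which 45 were higher. Without CGG library a or b it was 6, and without CGG library c 14. Of the 22, 3 were called in each such fit. Rises included chr1:111178214-111182186 (log2 change 1.09, from 0.889% ± 0.152 to 1.92% ± 0.458) and chr15:72203189-72204559 (0.96, from 0.0125% ± 0.000579 to 0.0249% ± 0.00853; SD, n = 3). The first was lost without CGG library b or CGG_siTRA library b, and the second in all fits without 1 library but that without CGG_siTRA library c. In siTRA against CTL these bins had log2 changes of 0.07 and -0.13.

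The knockdown comparisons siTRA against CTL and CGG_siTRA against CGG share no library. Called in both were 6 bins, which is 9.38% of the 64 and 27.3% of the 22, and all of them moved the same way. Over the long internal bins tested that is 0.114%, and over all bins 0.0328% were called in both. Of the 64 bins, 49 (76.6%) had the same sign in the other comparison, and of the 22 bins 14 (63.6%). Among all bins called the shares were 72.4% and 72.2%, and over all bins tested, called or not, 55.4%. Besides the bins of chromosomes 13 and 2 that rose and the bin of chromosome 12 that fell, the bins called in both include 2 bins in the last run of their gene. The bin chr11:47468892-47470293 rose from 3.50% to 4.90% without the repeat and from 3.43% to 4.60% with it, and chr1:7766523-7767856 from 3.59% to 5.16% and from 3.47% to 5.46%. Their log2 changes were 0.49 and 0.42, and 0.53 and 0.65, with each of these calls lost without at least 1 library (siTRA library b and CTL library b without the repeat, CGG library a and CGG_siTRA library b with it). The number called in both ranged from 2 without CGG_siTRA library b to 7 without CGG_siTRA library c, and was 3 without CGG library a or CTL library b.

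**Figure D5:**
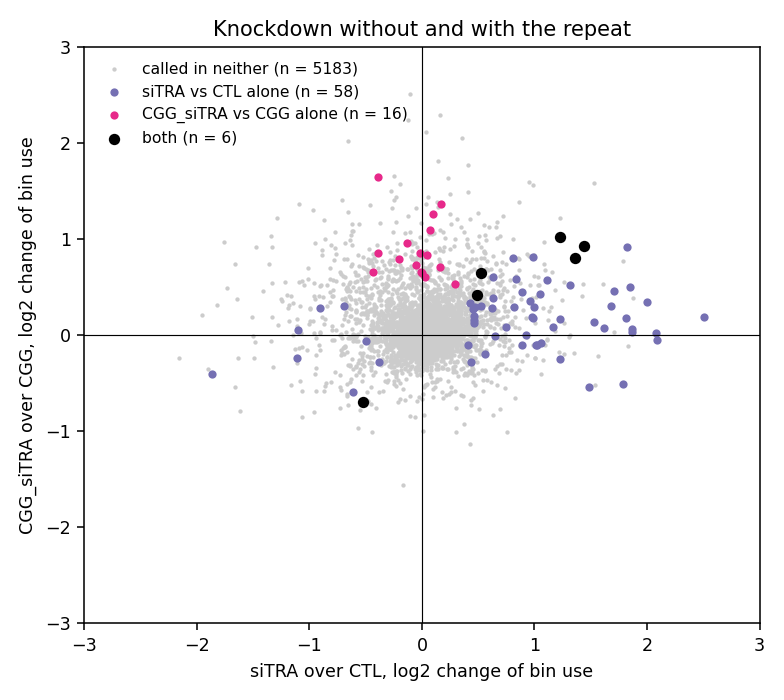
Log2 change of bin use with TRA2A knockdown in cells without the repeat (siTRA over CTL, horizontal axis) and with it (CGG_siTRA over CGG, vertical axis), 1 point for each of 5263 long internal bins tested, with no library in common between the axes. The 6 bins called in both comparisons (black) lie in the upper right and lower left of the plot.

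With both repeat and knockdown, CGG_siTRA differed from CTL in 39 bins, 27 higher and 12 lower. The share called was 0.741% of those tested, against 0.527% of all bins, 0.429% higher and 0.0976% lower, the smallest gap to the background of the 6 comparisons. Over the long internal bins the median log2 change was -0.01 and 0.00 over all bins. Rises included chr14:39246911-39248141 (1231 bases, adjoining no other bin), with shares of 0.311%, 0.323% and 0.381% in CTL and 0.886%, 0.822% and 0.668% in CGG_siTRA (log2 change 1.22, SE 0.25, BH-adjusted p = 0.00192, edgeR). It was 0.745% ± 0.106 in siTRA, 0.531% ± 0.0460 in CGG and 0.278% ± 0.0192 in TRA_OE (SD, n = 3). A fall that held without each library was chr13:30458747-30459849, in the last run of its gene, from 1.28%, 1.15% and 1.29% in CTL to 0.773%, 0.831% and 0.700% in CGG_siTRA (log2 change -0.69). Neither bin overlapped between these groups. Without CGG_siTRA library b the count was 16, 14 higher and 2 lower, without CTL library b or c it was 21, and without CTL library a 25.

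High and low TRA2A were set against each other in TRA_OE and siTRA. Here 78 bins were called, 4 higher and 74 lower in TRA_OE, or 1.48% of those tested, against 0.377% of all bins, 0.0991% higher and 0.278% lower. Long internal bins had a median log2 change of -0.10 and all bins one of 0.01. Without siTRA library b 20 bins were called, 2 higher and 18 lower. Without siTRA library c there were 168, without TRA_OE library b 24 and without TRA_OE library a 42. The chromosome 13 bin of 4654 bases (log2 change -0.83, BH-adjusted p = 1.48e-11, edgeR), the chromosome 2 bin (-0.78) and the chromosome 13 bin of 14599 bases (-1.38) were lower in TRA_OE in every such fit, and the chromosome 12 bin of 2668 bases was higher (0.67). The chromosome 14 bin of 1231 bases had a log2 change of -1.40, and chr1:156196205-156199617 (3413 bases), with 0.855% ± 0.171 in TRA_OE and 2.17% ± 0.312 in siTRA (SD, n = 3), had -1.36.

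Sparse bins moved together with the library. The 1775 bins with a density ratio under 0.1 had a median share of 0.310% to 0.325% in the CTL libraries, 0.266% to 0.289% in CGG and 0.246% to 0.267% in TRA_OE. In siTRA the 3 libraries spread from 0.263% (c) to 0.373% (b), and in CGG_siTRA from 0.279% (c) to 0.357% (b). The median log2 change of the sparse bins was -0.16 in CGG against CTL, -0.23 in TRA_OE against CTL and 0.19 in CGG_siTRA against CGG, where the 1732 tested bins with a ratio over 0.5 had -0.01, -0.01 and 0.00. For siTRA against CTL it was 0.03, and -0.11 without siTRA library b and 0.14 without siTRA library c. Shorter internal bins of equally low density, 12485 in number, had medians of -0.14 in CGG, -0.16 in TRA_OE and 0.23 in CGG_siTRA against CGG. Sparse long bins made up 23 of the 29 calls in CGG, 41 of the 50 in TRA_OE, 40 of the 64 in siTRA and 18 of the 22 in CGG_siTRA against CGG. Among sparse bins alone the share called was 1.30% of long and 0.873% of shorter internal bins in CGG, 2.31% and 1.16% in TRA_OE, 2.25% and 1.11% in siTRA, and 1.01% and 0.408% in CGG_siTRA against CGG. In these 4 comparisons long internal bins exceeded all bins in share called by a larger ratio than sparse long bins exceeded sparse shorter ones. The ratio was also larger in TRA_OE against siTRA (1.48% and 0.377%, against 3.33% and 1.15% at low density). It was smaller in CGG_siTRA against CTL (0.741% and 0.527%, against 1.30% and 0.777% at low density). The part of the shift of sparse bins in the single calls was not tested.

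The share of long internal bins called differed by place in the gene. Read density differed by place too, with a median ratio of 0.0691 in middle runs and 0.383 in the last run. In siTRA against CTL, 45 of 2479 tested middle-run bins (1.82%) were called, 14 of 2652 in the last run (0.528%) and 5 of 107 in the first run (4.67%). In TRA_OE the same places gave 43 (1.73%), 2 (0.0754%) and 5 (4.67%), and in CGG 24 (0.968%), 1 (0.0377%) and 4 (3.74%). Last-run bins were called in siTRA mostly with a rise (12 of 14), as were long internal bins of all places (55 of 64). The median share of last-run bins was 14.7% in siTRA library b, and 12.3% and 12.1% in libraries a and c. In the CTL libraries it was 12.3% to 12.6%. By density, 2.25% of bins with a ratio under 0.1 were called in siTRA, 1.08% from 0.1 to 0.5 and 0.289% over 0.5. Calls among all bins were not counted by place, and place was not set apart from density. All these values are a description, with no test between places.

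In 14 genes 2 or more long internal bins were called in at least 1 comparison. The gene with chr15:63044153-63047726 held a second bin, chr15:63055729-63056860, with a log2 change of -1.57 in TRA_OE that was lost without TRA_OE library b. Where 2 bins of a gene were called in the same comparison they moved the same way, except in the chromosome 10 gene with a rise and a fall in TRA_OE.

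The authors' deposited DEXSeq tables call more of the same bins. By the authors' deposited table for CGG against CTL, 281 long internal bins (5.24%) passed an adjusted p of 0.05 (58 higher, 223 lower), where 2% of all bins did (0.955% and 1.04%). For TRA_OE the authors' deposited table has 201 or 3.75% (32 and 169), against 1.32% of all bins (0.465% and 0.86%), and for siTRA 161 or 3.00% (92 and 69), against 1.83% of all bins (0.937% and 0.89%). For CGG_siTRA against CTL the authors' deposited table has 219 or 4.10% (95 and 124), against 3.87% of all bins (2.34% and 1.53%), for CGG_siTRA against CGG 168 or 3.20% (108 and 60), against 3.34% of all bins (1.72% and 1.62%), and for TRA_OE against siTRA 100 or 1.86% (20 and 80), against 0.595% of all bins (0.224% and 0.371%). In CGG_siTRA against CGG the share of long internal bins called in the authors' deposited table thus lay slightly below that of all bins, and in CGG_siTRA against CTL slightly above, so the excess over all bins in the edgeR test was absent or small there. The bins called here passed in the authors' deposited table with the same sign in 29 of 29 cases for CGG, 47 of 50 for TRA_OE and 53 of 64 for siTRA. The authors' deposited table gave 36 of 39 for CGG_siTRA, 14 of 22 for CGG_siTRA against CGG and 43 of 78 for TRA_OE against siTRA.

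EventPointer, a tool that finds alternative splicing events in a splice graph, gave a second deposited readout. Of its 6311 events 487 overlapped a long internal bin, and these touched 435 bins, 38 of them among the 159 called. By type the overlapping events were 111 cassette exons, 102 alternative last exons, 99 alternative first exons, 22 alternative 3′ splice sites, 26 alternative 5′ splice sites, 4 mutually exclusive exons, 121 complex events and 2 of the 129 events typed as retained introns. In the authors' deposited tables, 11 of the 487 had a p-value under 0.001 in CGG against CTL, where 97 of all 6311 did (2.26% and 1.54%). For TRA_OE against CTL the authors' deposited table has 7 and 87 (1.44% and 1.38%). For repeat plus overexpression against the repeat it has 2 and 54, and against repeat plus knockdown 8 and 70. For repeat plus knockdown against knockdown alone it has 2 and 33. An event was counted as overlapping if it shared any position with a long internal bin of its gene. Only 100 of the 487 had 0.5 or more of their span within 1 such bin. Among these 100 the authors' deposited tables have 1 event with a p under 0.001 in CGG against CTL and 1 in TRA_OE against CTL. They have 1 in repeat plus knockdown against knockdown alone, and 0 in either comparison of repeat plus overexpression. An alternative last exon event that spans the bin chr7:102249043-102258233 had a p of 3.58e-09 in CGG against CTL in the authors' deposited table. The bin's share was 12.6% ± 0.733 in CTL and 9.94% ± 0.268 in CGG (SD, n = 3), with a log2 change of -0.35 that was not called (BH-adjusted p = 0.153, edgeR).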

How the data were processed

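Total RNA libraries were prepared with TruSeq after rRNA depletion, from RNA isolated by a Qiagen protocol that includes DNase, per the labels' protocols. Reads of the monkey line were aligned to human GRCh38.p10, and the submitters' processing notes name cutadapt 1.14, STAR 2.5.2 and DESeq2, without their roles. The authors counted reads per DEXSeq bin, and these whole counts were used as deposited. The authors also deposited normalised values per bin (signal), which are counts divided by a factor per library: 100.0% of them gave whole reads within 0.1, and 1623 missing counts were filled from them. The log2 changes and adjusted p-values of the authors' DEXSeq tables, and the p-values and scores (change in percent spliced in) of the authors' EventPointer tables, are deposited values without a stated version. The sign of that score is not stated in the files, so it was not used. Library columns were assigned to groups by which comparison tables hold them, and letters a to c only name libraries.

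Bin use was tested in edgeR 4.0.16 (R 4.3.3) with TMM scaling, a quasi-likelihood fit of 5 groups over 15 libraries and diffSpliceDGE, on bins with a normalised value of 10 or more in 3 libraries, after tests on simulated data. Alternatives were limma 3.58.1, other minimums, widths and scalings, only the libraries of the 2 groups, and each library left out. Tables were joined with pandas 2.3.3 and drawn with matplotlib 3.10.9. Bins were named by rule from those called, where shares did not overlap and the group with the higher share averaged a normalised value of 50 or more, up to 10 per direction for CGG, TRA_OE and siTRA against CTL and 5 for the others. Other bins given with values were chosen after their values were seen. The bins, lists and rules were chosen with earlier results of these data known. No p is given for a value summed over bins. Gene lists and cell markers were not used, because 0 of 23133 gene IDs matched a name.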

Additional observations from a re-analysis of the deposited data

Results flagged for a closer look

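For 6 of the 47 bins named by the rule siTRA lay on one side of CTL and CGG_siTRA on the opposite side of CGG, with no overlap in either pair, so the share differed one way with knockdown in cells without the repeat and the other way in cells with it. The same held for 44 of 5263 long internal bins tested (0.836%) and for 0.858% of all bins, so it was no more frequent among long internal bins. The named bins were chosen partly by such lack of overlap. The values given are the log2 change without the repeat minus that with it, and the difference was not tested for any of them.

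At chr21:39296437-39298089 the difference was 0.75: the share was 1.42% in CTL and 2.08% in siTRA, and 2.31% in CGG and 2.04% in CGG_siTRA. At chr2:127763160-127764827 it was 0.72, with 2.62%, 2.90% and 2.96% in CTL, 3.43%, 4.60% and 3.48% in siTRA, 4.12%, 3.75% and 3.95% in CGG and 3.09%, 3.39% and 3.25% in CGG_siTRA. In these 2 bins the share was higher with knockdown alone and lower with knockdown on top of the repeat.

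The other 4 bins went the opposite way. At chr6:43778938-43780731 the difference was -1.22, with 0.933% ± 0.122 in CTL, 0.655% ± 0.0839 in siTRA, 0.489% ± 0.0294 in CGG and 0.794% ± 0.211 in CGG_siTRA (SD, n = 3). At chr2:216500032-216501340 it was -1.24, with 0.153% ± 0.0188, 0.106% ± 0.0101, 0.0822% ± 0.00787 and 0.136% ± 0.0135 in the same order (SD, n = 3). At chr14:23067314-23068362 it was -1.07, with 1.08%, 0.753%, 0.627% and 0.924%. The bin chr2:203439437-203441413 holds more of its gene, and there it was -1.0, with 10.2%, 9.43% and 11.2% in CTL, 7.06%, 5.89% and 6.13% in siTRA, 7.55%, 7.75% and 7.88% in CGG and 9.91%, 9.56% and 9.20% in CGG_siTRA.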

How the results depend on the processing

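With only the libraries of the 2 groups in the fit, 127 long internal bins (27 higher, 100 lower) were called in CGG against CTL, 96 in TRA_OE, 36 in siTRA and 24 in TRA_OE against siTRA. The share of all bins called in these fits was not counted. In the authors' deposited tables the counts were 281 for CGG, 201 for TRA_OE, 161 for siTRA, 219 for CGG_siTRA against CTL and 168 for CGG_siTRA against CGG. Bins of 500 bases or more gave 52, 83, 112 and 62 against CTL (CGG, TRA_OE, siTRA, CGG_siTRA) and 127 in TRA_OE against siTRA. Bins of 2000 or more gave 5, 17, 22 and 15 against CTL in the same order. They gave 11 in CGG_siTRA against CGG and 34 in TRA_OE against siTRA. These widths test more or fewer bins, and the share called at each was not computed, so the counts are not rates. By limma 107 were called in siTRA. With genes that hold such a bin as the denominator, the difference in share of counts was -5.71% in CGG and -6.87% in TRA_OE. For the other differences the cause was not tested.

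Without 1 library the counts ranged from 12 to 21 (CGG), 18 to 36 (TRA_OE), 30 to 87 (siTRA), 16 to 35 (CGG_siTRA against CTL), 3 to 46 (CGG_siTRA against CGG) and 20 to 168 (TRA_OE against siTRA), and from 2 to 7 for bins called in both knockdown comparisons. Over 78 pairs of a named bin and a comparison and 933 alternatives, 755 kept direction and call, 178 kept direction and lost the call, and 0 reversed. The pairs were chosen for a call and for shares that do not overlap, and the alternatives use the same counts. The lack of reversals was therefore largely set by that choice and is no separate check of direction. The planned DESeq2 fit was not run. No paired analysis was possible because the columns carry no replicate number.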
